A study of Mus musculus with 34 samples.

Results

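The colony-stimulating factors and their receptors were followed as 7 genes in mouse macrophages: the ligand genes Csf1, Csf2 and Csf3 and the receptor genes Csf1r, Csf2ra, Csf2rb and Csf3r. They were chosen by name, as the probe sets whose single gene symbol was one of the 7, and they came to 10 probe sets of the 12422 on the Affymetrix MG-U74Av2 array that are not controls. Csf3r had 3 probe sets, Csf1r had 2 and each other gene had 1. A further probe set that carries the symbols of both Csf2rb and Csf2rb2 was not counted.

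The study measured bone-marrow-derived macrophages, which had been grown for 7 days in CSF-1, the product of Csf1, before any treatment. Resting cells (4 arrays) were set beside cells given 100 ng/ml of lipopolysaccharide (LPS, a bacterial cell wall component) for 45 or 180 min. LPS was given alone, together with 10 ng/ml of the cytokine IL-10, or, at 45 min only, together with 2 ng/ml of IL-6. Wild-type, IL-10-/- and IL-6-/- cells each received these treatments, with 2 arrays a group, except IL-6-/- cells with LPS alone, which had 1 array at each time. That made 16 groups and 32 arrays, and 2 further arrays could not be placed in a group. The labels give the resting cells no genotype, name L-cell conditioned medium as their CSF-1 source and mCSF for the stimulated cells, call the arrays biological replicates, and do not give the number of mice, so the p-values reflect only how far these arrays vary, which may be technical. Whatever differs between the resting and the wild-type LPS arrays besides LPS cannot be told apart from it. Among 12 macrophage marker genes, 11 were on the array and each of them read at least 200 on every array, while the Il10 probe set read 1511.8 to 10596 in IL-10-/- cells and the Il6 probe set 427.5 to 8400.2 in IL-6-/- cells, so neither checks its genotype.

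Values are the deposited array signals, a linear brightness, scaled by the authors so that every array's trimmed mean lay between 500.29 and 500.4. Differences are given as log2 of signal plus 50, ± standard error (SE), from 1 limma model over all 32 arrays, and a change is called where its Benjamini-Hochberg adjusted p over the 8224 probe sets tested is under 0.05. A lone array is taken to vary as the other groups do. In such bulk samples fewer cells of a type and less RNA per cell cannot be told apart. Brightness depends on the probe, so the levels of the genes followed are not set against each other. Csf2 and some low signals are read beside genes of other tissues, as a rough guide to background only. Signals under 200 are called low here.

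M-CSF, encoded by Csf1, keeps macrophages alive and drives their differentiation through the tyrosine kinase receptor Csf1r. GM-CSF, encoded by Csf2, signals through a specific alpha chain, Csf2ra, paired with the common beta chain Csf2rb, which passes the signal to Jak2 and Stat5. G-CSF, encoded by Csf3, is the main growth factor of neutrophils and acts through Csf3r, whose signal runs largely through Stat3, the factor that IL-10 also uses. Macrophages exposed to LPS are a known source of all these ligands, and IL-10 is the main cytokine that restrains their output.

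RefSeq promoter windows (GRCm38.p6, from 250 bases before to 50 bases after the annotated gene start) were matched for 4 of the 7 genes. The windows of Csf2, Csf1 and Csf3r are shown because these genes moved most in the comparisons that follow, and capitals mark matches to the motifs searched. The Csf2 window is chr11:54249850-54250149 on the minus strand, the Csf1 window is chr3:107760420-107760719 on the minus strand and the Csf3r window is chr4:126024409-126024708 on the plus strand.
Csf2: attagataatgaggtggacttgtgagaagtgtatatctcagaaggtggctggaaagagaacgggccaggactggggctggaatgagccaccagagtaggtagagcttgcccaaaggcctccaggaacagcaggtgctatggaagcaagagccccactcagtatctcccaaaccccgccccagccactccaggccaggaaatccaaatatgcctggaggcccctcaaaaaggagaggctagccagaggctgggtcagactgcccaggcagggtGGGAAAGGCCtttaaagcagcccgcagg
Csf1: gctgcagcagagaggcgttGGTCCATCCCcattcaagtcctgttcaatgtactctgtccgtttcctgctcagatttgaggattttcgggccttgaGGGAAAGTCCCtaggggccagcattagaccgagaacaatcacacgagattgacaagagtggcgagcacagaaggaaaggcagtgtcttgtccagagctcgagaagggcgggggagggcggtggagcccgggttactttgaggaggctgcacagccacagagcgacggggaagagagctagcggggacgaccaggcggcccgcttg
Csf3r: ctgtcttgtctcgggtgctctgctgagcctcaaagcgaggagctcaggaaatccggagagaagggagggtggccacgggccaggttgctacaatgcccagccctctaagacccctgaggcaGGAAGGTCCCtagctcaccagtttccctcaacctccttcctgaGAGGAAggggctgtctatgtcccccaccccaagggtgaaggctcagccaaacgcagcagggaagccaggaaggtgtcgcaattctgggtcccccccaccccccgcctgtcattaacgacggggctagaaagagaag
A kappaB-like pattern (GGGA, any 4 bases, then CC), searched on both strands, was found in the 3 windows shown. It was not in the fourth window matched, that of Csf2ra, which had GAGGAA at -14 and -8 relative to the gene start. In Csf1 the kappaB-like pattern matched at -231 and, in overlapping matches on opposite strands, at -155 and -154 relative to the gene start. In Csf3r it matched at -129, with GAGGAA, a core read by the myeloid factor encoded by Spi1, at -86. In Csf2 it matched at position 23 after the annotated start, and whether these macrophages use that start was not tested. The kappaB-like pattern occurs in 20.7% of the 32851 promoter windows of this length and GAGGAA in 28.3%, so either match is common. The AP-1 pattern TGANTCA (7.81% of windows) and TATAAA (13.6%) were not in these 3 windows, which says only that the letters are not within them.

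Csf2 read high in IL-10-/- macrophages under LPS and low nearly everywhere else. At 180 min of LPS the 2 IL-10-/- arrays read 6968.7 and 6418.9, against 108.5 and 84.7 in wild-type cells and 65.8 on the lone IL-6-/- array. With IL-10 added to the IL-10-/- cells, the signal was 82.9 and 76.8. The groups did not overlap, and the IL-10-/- arrays without IL-10 stood far above all others.

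The low values of Csf2 were read against genes that macrophages should not express. Of 15 such genes listed (albumin, insulin, cardiac myosin and the like), 14 were on the array. Their 448 signals over the 32 arrays had a median of 56.05 and a 90th percentile of 288.2, and 83.9% were under 200. Among them Gh read 352 to 811.7, never under 200, and Gfap had a median of 228.8, so the upper values come partly from bright probe sets. Csf2 reached 200 on 5 of 32 arrays: the 4 IL-10-/- arrays with LPS alone and the lone IL-6-/- array at 45 min. It was therefore in the tests through those arrays alone, so the Csf2 tests that follow give no separate support for those arrays being high. On the IL-10-/- arrays at 180 min of LPS, 0 of the 14 genes reached the Csf2 signal, and at 45 min 1 of 14 did on each array. On the wild-type LPS arrays 8 and 9 of the 14 did so at 45 min and 4 and 5 at 180 min, and with IL-10 in IL-10-/- cells at 180 min 6 and 5 did so. In wild-type cells Csf2 was thus not separated from signals of genes of other tissues, and the size of any change that ends there depends on the constant added.

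**Figure D1:**
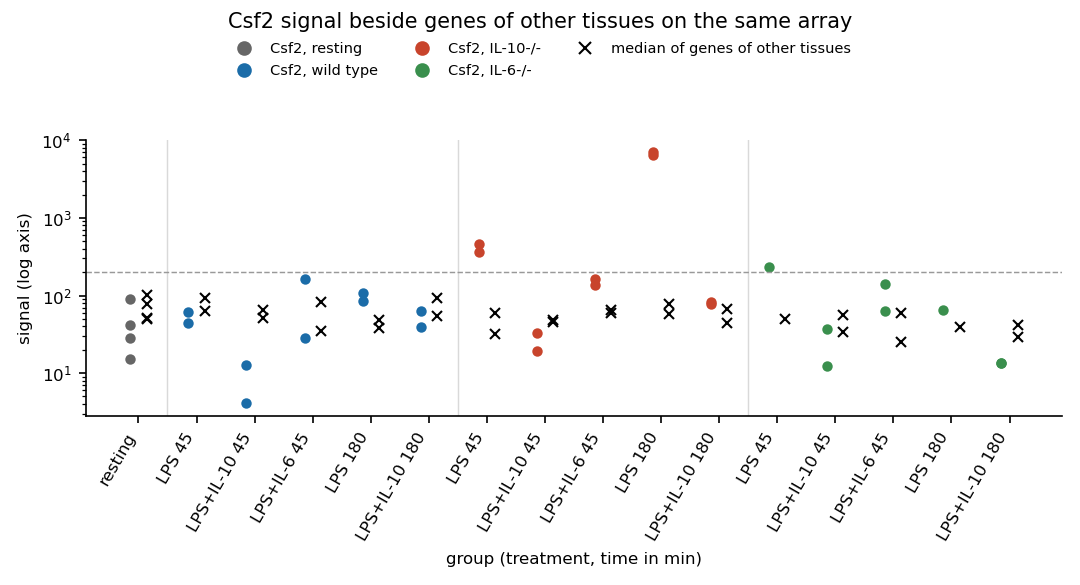
Csf2 signal on each array (filled points, coloured by genotype, log axis) over the 16 groups, with the median signal of 14 genes of other tissues on the same array (crosses); the dashed line marks a signal of 200. The 4 IL-10-/- arrays with LPS alone and 1 IL-6-/- array at 45 min lie above the line, with the 180 min IL-10-/- arrays at 6968.7 and 6418.9.

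In IL-10-/- cells Csf2 rose from 456.8 and 363.1 at 45 min of LPS to the 180 min values, a log2 change of 3.88 ± 0.42 (adjusted p = 2.77e-07). Over the same interval wild-type cells gave 61.7 and 44.1, then 108.5 and 84.7, a change of 0.51 ± 0.42 that was not called. The difference between these time courses, a comparison added after the data were seen, was 3.37 ± 0.59 (adjusted p = 0.00259). It was lost when 10 instead of 50 was added before the log (3.24, adjusted p = 0.141).

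IL-10-/- cells exceeded wild-type cells in Csf2 by 5.53 ± 0.42 at 180 min of LPS (adjusted p = 2.44e-09). At 45 min the difference was 2.16 ± 0.42 (adjusted p = 0.0137), with no overlap between 456.8 and 363.1 on one side and 61.7 and 44.1 on the other. The 45 min call did not hold without any 1 of the 4 arrays compared (adjusted p 0.0995 to 0.202) or with 10 added (0.0907). With IL-10 added to both genotypes at 180 min, the values were 82.9 and 76.8 against 63.6 and 39.7, a difference of 0.36 ± 0.42 that was not called.

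Added IL-10 lowered Csf2 in IL-10-/- cells at both times. At 180 min the log2 change was -5.70 ± 0.42 (adjusted p = 1.03e-09), and it ran from -6.22 with 10 added to -4.62 with 200 added. At 45 min Csf2 went from 456.8 and 363.1 to 19.1 and 33.0, a change of -2.60 ± 0.42 (adjusted p = 0.000891), which ranged from -3.56 to -1.43 over the settings and stayed called. In wild-type cells Csf2 went from 61.7 and 44.1 to 12.8 and 4.1 at 45 min, and from 108.5 and 84.7 to 63.6 and 39.7 at 180 min. Neither pair of groups overlapped and neither change was called (-0.81 ± 0.42 and -0.53 ± 0.42). In IL-6-/- cells the lone LPS array read 231.2 at 45 min against 36.5 and 12.3 with IL-10, a change of -1.94 ± 0.51 (adjusted p = 0.186), and 65.8 at 180 min against 13.6 and 13.4. The mean over the 3 genotypes was called at 45 min (-1.78 ± 0.26, adjusted p = 0.000105) and at 180 min (-2.37 ± 0.26, adjusted p = 1.85e-06). At 180 min IL-10-/- cells carried most of the mean, as the change was -0.53 in wild-type and -0.87 in IL-6-/- cells. Over the settings these means stayed called and ran from -2.75 to -0.88 and from -2.91 to -1.73. The 180 min change was larger in IL-10-/- than in wild-type cells by -5.16 ± 0.59 (adjusted p = 1.34e-05). Wild-type Csf2 under LPS alone was already among the signals of genes of other tissues and had little room to fall. That difference therefore largely restates the gap between the genotypes under LPS alone.

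Over the 16 groups Csf2 was highest in IL-10-/- cells with LPS for 180 min (6694 ± 388.8, SD, n = 2), then in the same cells at 45 min (410 ± 66.3, SD, n = 2), then on the lone IL-6-/- LPS array at 45 min. Next came IL-10-/- cells with LPS and IL-6 at 45 min, at 163.5 and 136.6. These first 4 groups in the order did not overlap their neighbours, except that the last of them overlapped the IL-6-/- group with LPS and IL-6 (140.2 and 63.9). Wild-type cells with LPS and IL-6 read 165.1 and 28.2, and the 4 resting arrays read 41.4, 28.6, 15.4 and 90.2. Of the 15 neighbouring pairs in the whole order, 7 had ranges that did not overlap, some of them through a lone array, which has no range. Such counts, here and for the other genes, describe an order sorted on the same values. The share over all probe sets was not worked out, so they are not read as a result. Il3, the next protein-coding gene to Csf2 on chromosome 11 and the gene of another cytokine that uses the common beta chain, had group means of 54.1 to 162.9, low in every group.

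Csf1 was the ligand gene called by 45 min of LPS, and it read higher in every stimulated group than in resting cells. The resting arrays read 432.2, 207.8, 309.6 and 662.2. In wild-type cells 45 min of LPS gave 2706.4 and 2923.2, and 180 min gave 3266.1 and 4631.6. The lowest of the 28 stimulated arrays, at 1647, lay above the highest resting array. The change from resting cells was 2.76 ± 0.25 at 45 min (adjusted p = 1.08e-08) and 3.22 ± 0.25 at 180 min (adjusted p = 2.48e-10), and both calls held under every setting and every left-out array tried.

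Csf1 was highest in IL-10-/- cells at 180 min of LPS, at 6182.3 and 5637.6, and this group did not overlap the next, wild-type cells at 180 min. From 45 min, when the IL-10-/- arrays read 2429.0 and 3059.5, the rise was 1.10 ± 0.29 (adjusted p = 0.00825). The rise was not called without the first array at 45 min (adjusted p = 0.0939) or the first at 180 min (0.0709). In wild-type cells the change between these times was 0.46 ± 0.29 and was not called, and the difference between the genotypes in this change was 0.64 ± 0.40 (adjusted p = 0.602). IL-10-/- minus wild-type cells at 180 min came to 0.60 ± 0.29 (adjusted p = 0.399).

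With IL-10 added for 180 min, Csf1 in IL-10-/- cells read 3099.7 and 3224.8, clear of the arrays without it. The change of -0.89 ± 0.29 was not called (adjusted p = 0.108), although it was with 200 added before the log (0.036) and without the fourth resting array (0.0189). Wild-type cells with IL-10 at 180 min read 3060.4 and 4069.8, overlapping those without it, and the change was -0.14 ± 0.29. IL-6-/- cells read 3329.3 without IL-10 and 2340.1 and 2587.6 with it, a change of -0.43 ± 0.35. None of these changes was called. At 45 min Csf1 with LPS and IL-10 read 2226.3 and 2313.8 in wild-type cells, 2205.2 and 2093.0 in cells lacking IL-10, and 1651.2 and 1647.0 in cells lacking IL-6, each below that genotype's arrays with LPS alone, and again no change was called (mean of the genotypes -0.32 ± 0.18, adjusted p = 1.000). Of 15 neighbouring pairs in the order of the Csf1 levels, 8 did not overlap, and resting cells were last (403 ± 195.7, SD, n = 4).

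Csf3 was called against resting cells at 180 min of LPS but not at 45 min. The resting arrays read 471.0, 295.7, 197.7 and 405.1, and wild-type cells read 422.0 and 705.5 at 45 min and 631.2 and 841.2 at 180 min of LPS. The 180 min arrays lay above all 4 resting arrays, while those of 45 min overlapped them. The change at 180 min was 1.05 ± 0.25 (adjusted p = 0.00185), lost without the second wild-type array of that time (0.0579). At 45 min it was 0.66 ± 0.25 (adjusted p = 0.0691), and it was called without the first or the fourth resting array (0.0226 and 0.0434) or without the first wild-type array (0.0433).

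Between 45 and 180 min Csf3 rose in IL-10-/- cells, from 320.5 and 459.6 to 860.2 and 1048.3 (1.20 ± 0.29, adjusted p = 0.00417). With IL-10 present it rose in IL-10-/- cells from 669.9 and 564.6 to 1082.3 and 1404.1 (0.95 ± 0.29, adjusted p = 0.0272) and in IL-6-/- cells from 387.4 and 436.9 to 848.1 and 918.4 (1.02 ± 0.29, adjusted p = 0.0157). In wild-type cells with IL-10 it read 578.6 and 634.6, then 898.2 and 984.2, without a call, and in those with LPS alone the change was 0.38 ± 0.29. The IL-10-/- call under LPS alone was lost without the first 45 min or the second 180 min array (adjusted p = 0.0765 and 0.0587). The IL-10-/- call with IL-10 was lost without any 1 of its 4 arrays (0.0521 to 0.234), and the IL-6-/- call without the first 45 min array or either 180 min array (0.0594 to 0.11).

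No change of Csf3 with IL-10 was called. The highest group was IL-10-/- cells with LPS and IL-10 at 180 min (1243 ± 227.5, SD, n = 2), and its arrays did not overlap those without IL-10. At 180 min IL-10 changed Csf3 by 0.35 ± 0.29 in wild-type, 0.36 ± 0.29 in IL-10-/- and 0.63 ± 0.35 in IL-6-/- cells, with no call. The lowest value of all 32 arrays, 180.8, was the lone IL-6-/- array with 45 min of LPS, and the difference from wild-type cells there was -1.37 ± 0.35 (adjusted p = 0.257). Only 4 of 15 neighbouring pairs in the order of Csf3 levels did not overlap.

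**Figure D2:**
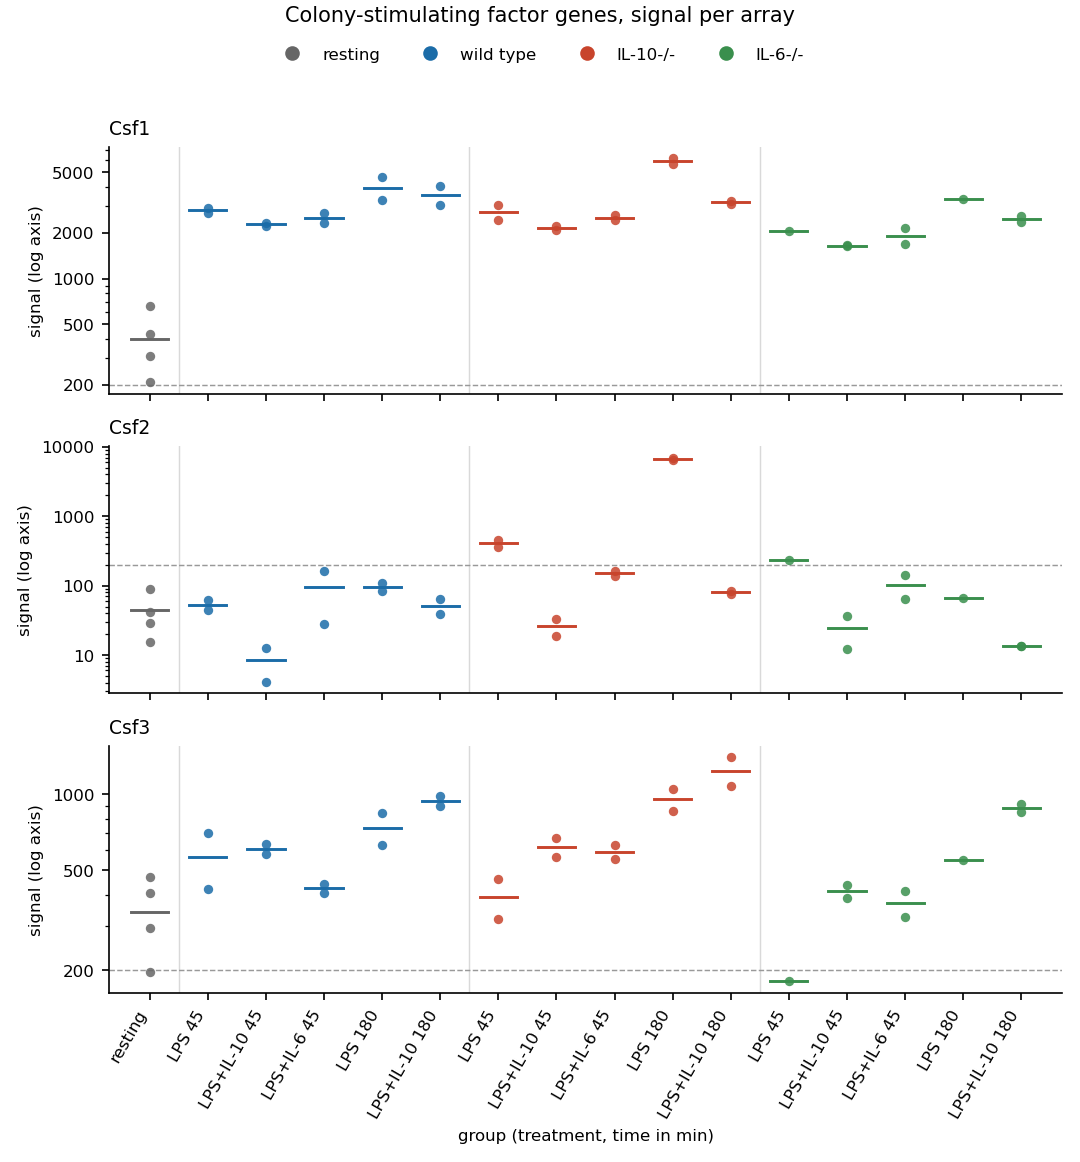
Signal of Csf1, Csf2 and Csf3 on each array (points, log axis) with the group mean (bar) over resting cells and the 15 stimulated groups, coloured by genotype; the dashed line marks a signal of 200. Csf2 reads 6968.7 and 6418.9 in IL-10-/- cells at 180 min of LPS, where Csf1 is also highest, while Csf3 is highest in the same cells with IL-10 added.

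Csf3r, the G-CSF receptor gene, was the receptor gene that differed most between genotypes and with IL-10. Its probe set 93198_at read 211.2 and 135.9 in IL-10-/- cells at 180 min of LPS, the lowest of the 15 stimulated groups. Wild-type cells at that time read 1350.2 and 1476.3, and the IL-6-/- array read 1268.5. With IL-10 added the signal was 2221.1 and 1909.9 in IL-10-/- cells, 2017.0 and 2340.1 in wild-type cells and 1893.1 and 1914.7 in IL-6-/- cells. Thus the IL-10-/- arrays without IL-10 stood far below the rest, and with IL-10 the 3 genotypes overlapped or lay next to each other.

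The IL-10 change of 93198_at at 180 min was 3.26 ± 0.58 in IL-10-/- cells (adjusted p = 0.000664), and it held under every setting and every left-out array tried. It was 0.60 ± 0.58 in wild-type cells and 0.57 ± 0.71 in those lacking IL-6, neither called, although the arrays with IL-10 lay above those without in both. The mean over genotypes was 1.48 ± 0.36 (adjusted p = 0.0165), lost without the second IL-10-/- LPS array (0.0545). IL-10-/- minus wild-type cells at 180 min of LPS came to -2.73 ± 0.58 (adjusted p = 0.00616), lost without the second wild-type array (0.0758) or the second IL-10-/- array (0.102). The IL-10 change was larger in IL-10-/- than in wild-type cells by 2.66 ± 0.82, which was not called (adjusted p = 0.234).

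Probe set 95808_g_at of Csf3r gave calls in the same directions. It read 313.2 and 344.6 in IL-10-/- cells at 180 min of LPS and 2099.6 and 1704.5 with IL-10, a change of 2.36 ± 0.50 (adjusted p = 0.00489), lost without the first array of either group (0.0557 and 0.0761). Wild-type cells read 1263.8 and 1316.6 without IL-10 and 1828.2 and 1950.5 with it, a change of 0.53 ± 0.50, and IL-6-/- cells read 1571.0 without it and 1053.6 and 2076.2 with it. IL-10-/- minus wild-type cells at 180 min of LPS was -1.82 ± 0.50 (adjusted p = 0.0493). That call was lost in 5 of 7 settings, with the replicate block among them (0.062), and without any 1 of the 4 arrays (up to 0.263).

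Probe set 95807_at did not follow the other Csf3r probe sets. It read between 923.6 and 2446.9 over the 32 arrays, gave 1693.1 and 1476.5 in IL-10-/- cells at 180 min of LPS and 1666.6 and 1144.0 with IL-10, and was called in no comparison. In its order of levels, 0 of 15 neighbouring pairs were apart. The statements on Csf3r therefore rest on 2 of its 3 probe sets.

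**Figure D3:**
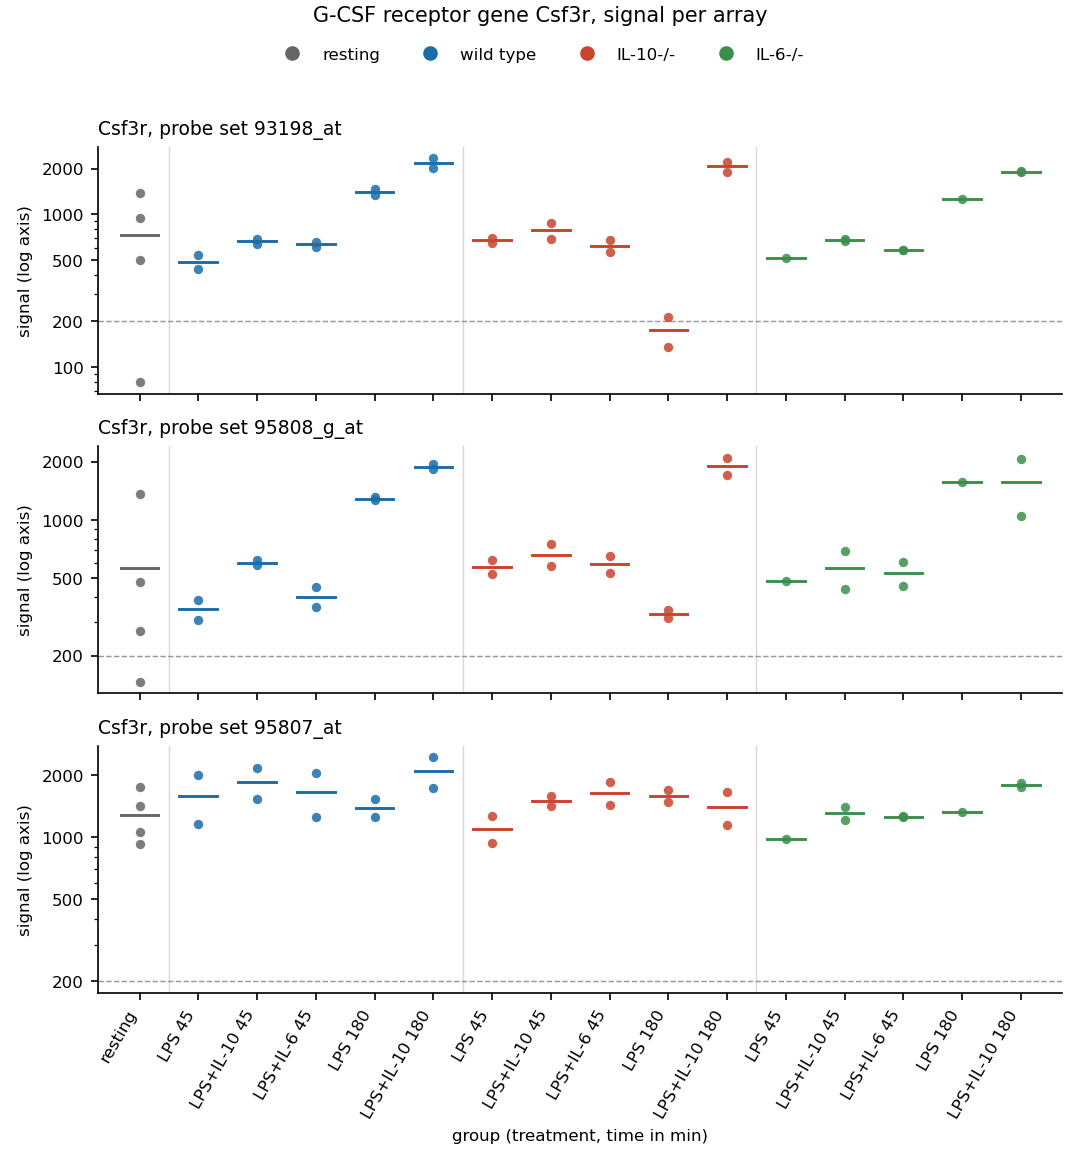
Signal of the 3 Csf3r probe sets on each array (points, log axis) with the group mean (bar) over the 16 groups, coloured by genotype; the dashed line marks a signal of 200. The IL-10-/- arrays at 180 min of LPS lie lowest of the stimulated arrays on 93198_at, and on 95808_g_at their range of 313.2 to 344.6 overlaps wild-type cells at 45 min (305.2 and 389.1). On both probe sets they lie far below the IL-10-/- arrays with IL-10, a gap that 95807_at does not show.

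Over time a probe set of Csf3r was called higher in wild-type cells and another lower in IL-10-/- cells. From 45 to 180 min of LPS, 95808_g_at rose in wild-type cells from 389.1 and 305.2 (1.76 ± 0.50, adjusted p = 0.0191), a call lost without any 1 of the 4 arrays (0.0608 to 0.12). In IL-10-/- cells 93198_at fell from 700.2 and 653.2 (-1.72 ± 0.58, adjusted p = 0.0411), a call lost in 4 of 7 settings (up to 0.062) and without any 1 of the 4 arrays (up to 0.223). The difference between these time courses, again added after the data were seen, was -3.16 ± 0.82 for 93198_at (adjusted p = 0.0601) and -2.48 ± 0.71 for 95808_g_at (0.121), neither called. With IL-10 present 95808_g_at rose in wild-type cells from 584.5 and 622.1 to the 180 min values (1.57 ± 0.50, adjusted p = 0.0356), lost without the filter, without the intensity trend and without any 1 of the 4 arrays (up to 0.149).

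The resting arrays disagreed on Csf3r, with 1380.9, 506.3, 955.2 and 79.2 on 93198_at and 1361.4, 269.6, 480.7 and 146.3 on 95808_g_at, the fourth being lowest on both. Against them wild-type cells at 180 min of LPS were higher by 1.37 ± 0.50 on 93198_at (adjusted p = 0.0369) and 1.53 ± 0.44 on 95808_g_at (0.00826). Neither group stood clear: the highest resting array lay within the LPS range on 93198_at and above it on 95808_g_at. The first call was lost without the filter (0.0527), without the trend (0.0537), with the replicate block (0.0512), and without the second resting array (0.0583) or either LPS array (0.123 and 0.167). The second was lost without either LPS array (0.0523 and 0.0633).

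The fourth resting array also widened the spread that the model shares over groups. Without it the 93198_at change at 180 min of LPS was 0.66 (adjusted p = 0.0479) and the change at 45 min was -0.79 (0.0329), the latter being -0.08 ± 0.50 (0.939) with it. The IL-10 change of 93198_at then differed between IL-10-/- and wild-type cells with an adjusted p of 0.000365, and the time courses did so with 3.17e-05 on 93198_at and 0.0278 on 95808_g_at. The values of those 3 differences did not depend on that array.

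Csf3r is a marker of neutrophils as well as a gene of macrophages, and the neutrophil list was read beside it. All 11 genes of the list were on the array, and Mpo and Cxcr2 were under 200 on every array. The summed signal of the list was 1748 to 3539 in resting cells. At 180 min of LPS it was 1351 in wild-type cells (2005 with IL-10) and 1407 in IL-10-/- cells (2506 with IL-10). S100a8 alone went from 236.1 to 1491 in the latter pair, and the other 10 genes summed to 1171 without IL-10 and 1014 with it. The part of other cells in the Csf3r values was not tested.

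Csf1r, the receptor for the M-CSF in which the cells were grown, fell late under LPS. On probe set 104354_at the resting arrays read 33289.1, 27961.0, 27065.0 and 26460.5, and wild-type cells read 28074.8 and 25508.7 at 45 min and 17352.6 and 19197.3 at 180 min. The 180 min arrays lay below all resting and all 45 min wild-type arrays. The change from resting cells was -0.65 ± 0.14 at 180 min (adjusted p = 0.000923), held under every setting and left-out array tried, and -0.09 ± 0.14 at 45 min.

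From 45 to 180 min of LPS, Csf1r fell in wild-type cells by -0.55 ± 0.16 (adjusted p = 0.0246) and in IL-10-/- cells from 23228.2 and 27668.8 to 13156.0 and 17424.1 (-0.74 ± 0.16, adjusted p = 0.00218). With IL-10 present it fell in IL-10-/- cells from 23279.4 and 20077.3 to 14659.0 and 14515.0 (-0.57 ± 0.16, adjusted p = 0.0211). In wild-type cells with IL-10 Csf1r read 22537.9 and 24538.4, then 15611.8 and 20384.6. That change of -0.40 ± 0.16 was not called (adjusted p = 0.115). In IL-6-/- cells with IL-10 Csf1r read 20180.5 and 19105.1, then 14213.6 and 14859.8, and the change of -0.43 ± 0.16 was not called (adjusted p = 0.0774). The wild-type call under LPS alone was lost without any 1 of its 4 arrays (0.0579 to 0.168), without the filter (0.0559) and without the trend (0.0601). The IL-10-/- call under LPS was lost without the second 45 min array (0.055) or the first 180 min array (0.0818), and that with IL-10 without 3 of the 4 arrays (0.107 to 0.2), without the filter (0.0515) and without the trend (0.0558).

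No change of Csf1r with IL-10 was called at either time. At 180 min the changes were -0.03 ± 0.16 in wild-type, -0.05 ± 0.16 in IL-10-/- and -0.25 ± 0.20 in IL-6-/- cells. The order of groups ran from resting cells (28690 ± 3125, SD, n = 4) down to IL-6-/- cells with IL-10 at 180 min (14540 ± 456.9, SD, n = 2), with 1 of 15 neighbouring pairs apart. The other Csf1r probe set, 161832_r_at, was dim, at 26.1 to 501.7, and reached 200 on 14 of 32 arrays. It was called in no comparison with all arrays in, and at 45 min of LPS it was called without the fourth resting array, its dimmest (-1.38, adjusted p = 0.0095, against -0.73 ± 0.53).

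Csf2ra, the GM-CSF receptor alpha chain gene, read 1485.7, 970.5, 2019.1 and 920.5 in resting cells and 833.9 and 785.7 in wild-type cells at 180 min of LPS. The LPS arrays lay below all 4 resting arrays, and the change was -0.63 ± 0.23 (adjusted p = 0.0357). The call was lost without the first resting array (0.0766), the resting array that read 2019.1 (0.113) or either LPS array (0.114 and 0.172). At 45 min, with 928.7 and 750.6, the change of -0.59 ± 0.23 was not called (adjusted p = 0.0806), although it was without the second or the fourth resting array (0.0369 and 0.0222). The stimulated arrays ran from 633.1 to 1127.5 with no call between them, and 1 of 15 neighbouring pairs in the order was apart.

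Csf2rb, the common beta chain gene, was called in no comparison. Its signal ran from 752.1 to 3939.7, and the highest value was the first resting array, the others reading 1226.1, 1750.8 and 1735.6. Wild-type cells read 752.1 and 1574.5 at 45 min and 1275.3 and 2063.0 at 180 min of LPS, and IL-10-/- cells at 180 min read 855.7 and 1526.6. The second array was the higher in 12 of the 13 groups with 2 arrays. In the order of levels, 1 of 15 neighbouring pairs was apart. Its paralog Csf2rb2, the mouse beta chain that serves IL-3 alone, had group means of 2075 to 3718 on 1 probe set. On another Csf2rb2 probe set the group means ran from 4.3 to 65.15, low in every group. Whether Csf2rb2 reads as low therefore depends on the probe set.

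**Figure D4:**
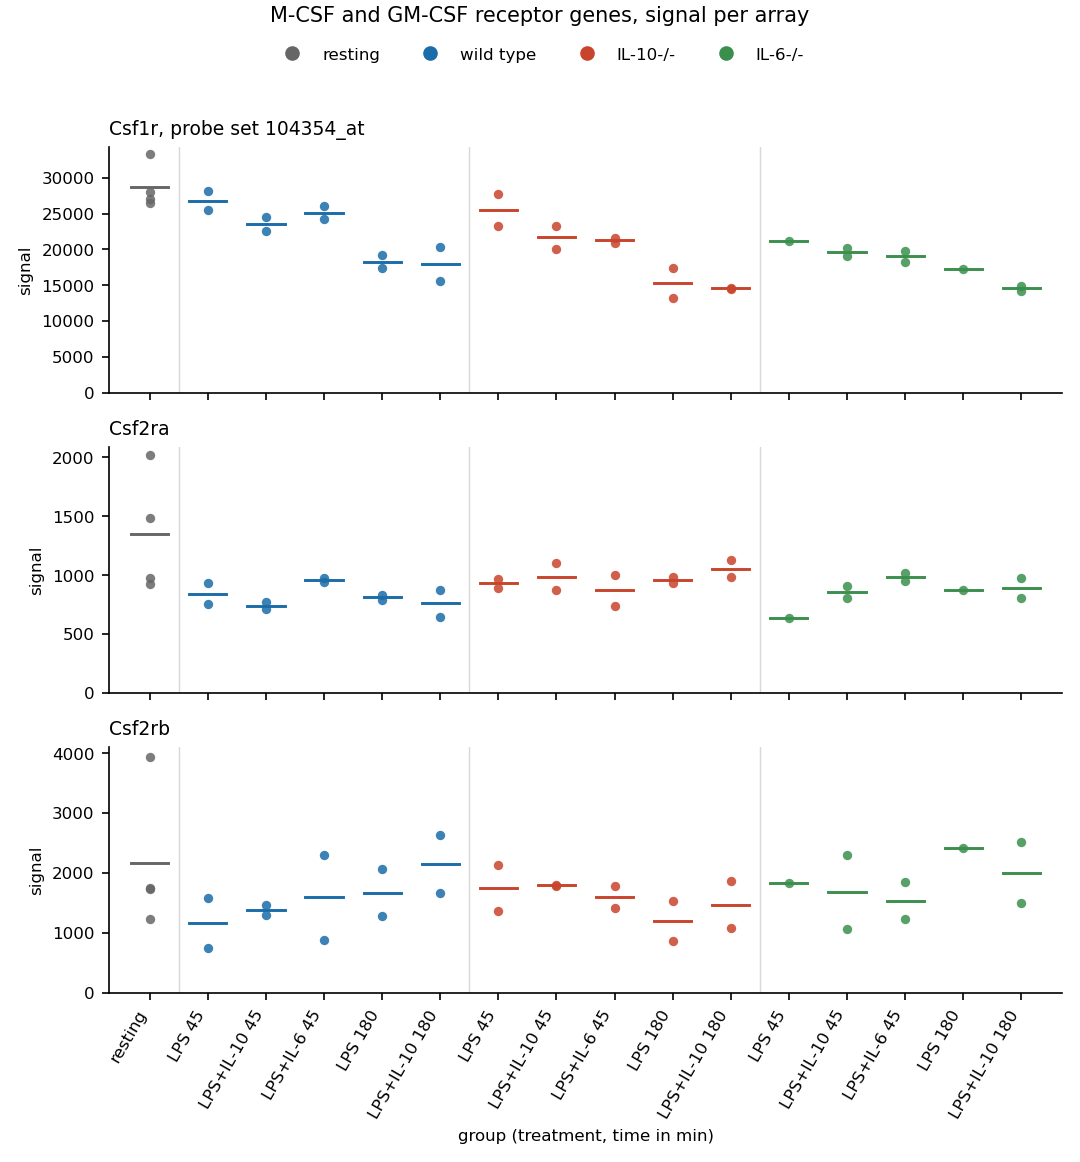
Signal of Csf1r (probe set 104354_at), Csf2ra and Csf2rb on each array (points, linear axes from 0) with the group mean (bar) over the 16 groups, coloured by genotype. Csf1r is highest in resting cells, at 26460.5 to 33289.1, and lower at 180 min than at 45 min in each genotype, while the Csf2rb arrays of most groups lie far apart.

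Counted over the 10 probe sets, LPS at 45 min called 1 against resting cells, Csf1, where 16.7% of all probe sets tested were called, which is near that background. LPS at 180 min called 6 (Csf1, Csf3 and 2 of Csf3r higher, Csf1r and Csf2ra lower) against a background of 33.8%. The median change over the 10 was 0.42, beside -0.09 over all probe sets tested. From 45 to 180 min of LPS, 2 were called in wild-type cells (background 13.9%) and 5 in IL-10-/- cells (17.1%). With IL-10 present, 1 was called in wild-type cells (15.2%), 2 in IL-10-/- cells (12.9%) and 1 in IL-6-/- cells (15.6%). The comparisons with resting cells share the 4 resting arrays, and a list of 6 stromal genes summed to 656.7 to 1919 in those arrays against 3845 to 7907 in the stimulated groups. A list of 6 dendritic cell genes summed to 1310 to 2522 against 5145 to 15560. Most of that sum was Cd83, which ran from 274.4 to 14614.6 over the arrays. No other gene of the list passed 1111.3, the highest value of Flt3, so the sum is largely the change of 1 gene. The part of both lists in these results was not tested.

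IL-10 at 45 min called 0 of the 10 in wild-type (background 0.401%) and IL-6-/- cells (0.328%), 1 in IL-10-/- cells (0.547%) and 1 in the mean (1.03%), which was Csf2 both times. At 180 min 0 were called in wild-type (0.134%), 0 in IL-6-/- (0.207%) and 3 in IL-10-/- cells (3.54%) and 2 in the mean (3.82%), which were Csf2 and Csf3r. IL-10-/- minus wild-type cells called 1 at 45 min of LPS (0.377%) and 3 at 180 min (2.87%), and 0 where both had IL-10 for 180 min (0.219%). The difference between these genotypes called Csf2 alone, both in the IL-10 change at 180 min (0.559%) and in the time course of LPS (1.12%).

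**Figure D5:**
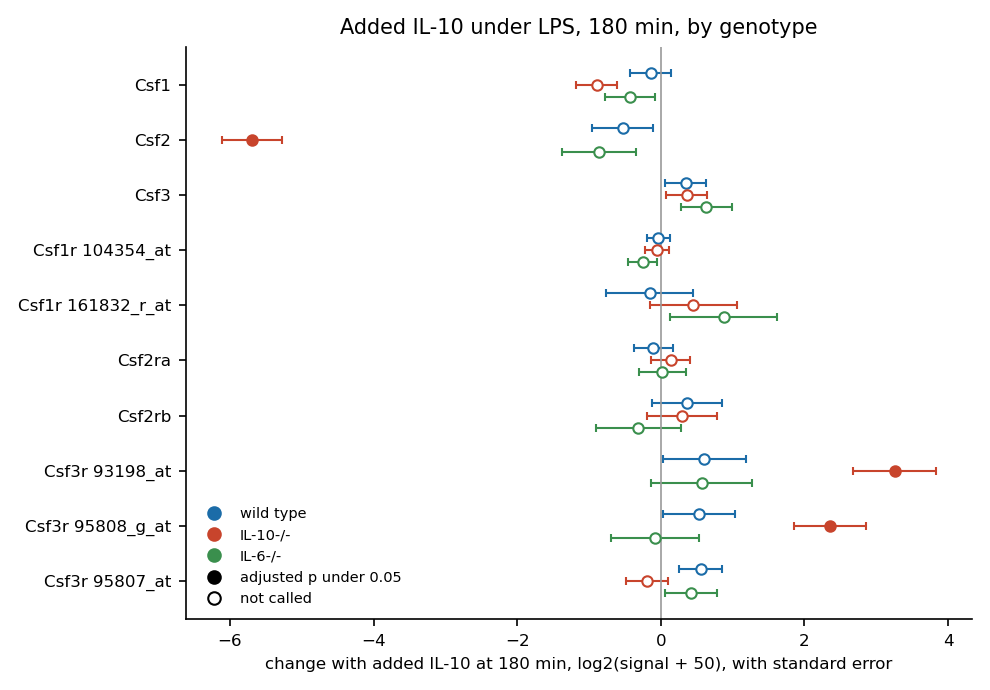
Change of each of the 10 probe sets with IL-10 added to LPS for 180 min, as log2(signal + 50) with its standard error from limma, in wild-type, IL-10-/- and IL-6-/- cells; filled points have an adjusted p under 0.05. The 3 filled points are in IL-10-/- cells, Csf2 at -5.70 and Csf3r at 3.26 and 2.36.

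IL-6 for 45 min called none of the 10 probe sets, with 0.219% of all probe sets called in wild-type, 0.0365% in IL-10-/-, 0.073% in IL-6-/- cells and 0.547% in the mean. In IL-10-/- cells Csf2 nonetheless read 163.5 and 136.6 with IL-6, below and apart from 456.8 and 363.1 without it, a change of -1.20 ± 0.42 (adjusted p = 1.000, unadjusted p = 0.00895). IL-6-/- minus wild-type cells called none of the 10 at 180 min of LPS (0.182%). At 45 min limma called 0 of the 8224 probe sets (0%), with 419 at an unadjusted p under 0.05. Both comparisons of IL-6-/- with wild-type cells rest on 1 IL-6-/- array each.

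Around the members, a list of 54 genes of the CSF receptor pathway was read, of which 49 were on the array and 42 were tested. LPS at 180 min raised 13, lowered 11 and left 18 without a call, where 33.8% of all probe sets tested were called, with a median of 0.13 beside -0.09 over all. The largest rises were in Socs3, a feedback inhibitor (7.22 ± 0.23), the kinase gene Jak2 (mean signal 248.5 to 4714), the survival kinase gene Pim1 (2.97 ± 0.27), Socs1 (2.71 ± 0.32), Myc (2.46 ± 0.26) and Stat5a, the factor downstream of the beta chain (2.14 ± 0.24), each with an adjusted p of at most 3.76e-07. The largest falls were in the myeloid factor gene Cebpa (-2.27 ± 0.26), the phosphatase gene Inpp5d (-1.84 ± 0.18), the kinase gene Fes (-1.83 ± 0.20), Irf8 (-1.12 ± 0.17), the phosphatase gene Ptpn6 (-1.11 ± 0.21) and Pik3cd (-1.11 ± 0.29). At 45 min 8 rose, 7 fell and 27 were not called (16.7% called over all). The resting means of Socs3 (89.58) and Myc (12.52) were low, within the signals of genes of other tissues, so the sizes of those 2 changes depend on the constant added.

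In the same list IL-10 at 180 min called 0 of 42 in wild-type cells (0.134% over all), while IL-10-/- cells had 9 higher, 2 lower and 31 without a call (3.54% over all, median 0.23 beside -0.03 over all). Higher genes included the kinase subunit gene Pik3cd (2.75 ± 0.33), Cebpb (1.72 ± 0.29), Stat3 (1.53 ± 0.17), Pik3r1 (1.37 ± 0.30), Irf8 (1.26 ± 0.20) and Jak1 (0.98 ± 0.24), and the falls were in Egr2 (-1.55 ± 0.22) and Cish, a feedback gene of Stat5 (-1.36 ± 0.24). Adjusted p values were at most 0.0153. Pik3cd started from a mean of 55.1, near the median of the genes of other tissues, and Pik3r1 from 171.2, so the sizes of these changes depend on the constant added. IL-10-/- minus wild-type cells at 180 min of LPS had 2 higher, Egr2 and Cish, and 6 lower (2.87% over all). The difference between these genotypes in the IL-10 change was called for Stat3 alone (1.07 ± 0.25, adjusted p = 0.0425) of the 42.

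Patterns over the 16 group means were compared with some 7340 probe sets of other genes, by Pearson's r of log2(signal + 50), as a description over group means that share the same arrays. Nearest to Csf1 were Il1b (0.946), Il1a (0.943) and Cyp1b1 (0.942). Nearest to Csf2 were Hspa1a (0.872), Gosr2 (0.842) and Ccl17 (0.823), to Csf3 Anxa7 (0.938), Hivep1 (0.895) and Serf2 (0.877), and to Csf1r on 104354_at Abcc3 (0.949), Gtf3c1 (0.945) and Cmtm7 (0.935). Csf2 lay near the signals of genes of other tissues in most groups, so its r depends largely on its few high groups. For Csf3r, 93198_at was nearest to both probe sets of Stat3 (0.957 and 0.947) and to Tiam1 (0.947), and 95808_g_at to Nek6 (0.952), Ptpn1 (0.95) and Inpp5b (0.947). Nearest to Csf2ra were Tubb5 (0.772), a (0.763) and Elob (0.758), and to Csf2rb Wbp11 (0.798), Snx27 (0.783) and Ppp4c (0.782). For Csf3r on 95807_at they were Cwc22 (0.861), Ctsb (0.811) and Sec23b (0.762), and for the dim Csf1r probe set 161832_r_at they were Il5 (0.886), Apex1 (0.852) and Pecam1 (0.829). Il5 had group means of 52.3 to 140.6, low in every group.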

How the data were processed

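Total RNA of 34 cultures was hybridised to 1-colour Affymetrix MG-U74Av2 arrays. The intensity values were deposited by the authors as linear signals, made with MAS5 per the submitters' processing notes (version and settings not given in the sources used here). No depth or detection call was used, and the number of arrays limits the precision. Probe sets were named through the platform annotation (10855 with 1 symbol, 396 with several, 1237 not listed), and the 66 controls were left out. Of 12422 probe sets, the 8224 with a signal of at least 200 on at least 2 grouped arrays were tested. log2(signal + 50) was fitted with limma 3.58.1 (lmFit, eBayes with trend, R 4.3.3) to 16 group means over 32 arrays, with 16 residual degrees of freedom, 25 comparisons and 1 added after the data were seen. The fit was tried on simulated data with independent normal noise and fixed shifts, without an outlying array or a replicate effect. That trial says nothing on those features of the real arrays. Replicate arrays correlated at 0.863 to 0.96 and no 2 were identical. The members, lists and rules were chosen with earlier results of these data known. The named genes are all member probe sets, the 6 largest called changes each way in the pathway list in 2 comparisons, and the 3 probe sets nearest in pattern to each member. Alternatives were constants of 10 and 200, no filter, a filter at 500, quantile normalization, no trend, the replicate number as a block, and each array left out in turn. The 2 arrays without a group (1 title with no genotype, 1 with 2 conflicting times) entered no test.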

Additional observations from a re-analysis of the deposited data

Results flagged for a closer look

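The loss of Csf2 signal with IL-10 at 180 min differed between IL-10-/- and wild-type cells by -5.16 on the log2(signal + 50) scale in the limma test of that difference (6968.7 and 6418.9 to 82.9 and 76.8, against 108.5 and 84.7 to 63.6 and 39.7). The Csf2 time course under LPS differed between the same genotypes by 3.37, in the comparison added after the data were seen. In wild-type cells Csf2 was not separated from signals of genes of other tissues, so a fall there could hardly be read. Csf2 was tested only through its high arrays, so neither difference gives separate support for those arrays being high.

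Among the 2 arrays with no group, 4 values lay above the highest resting array. The array whose title gives no genotype (LPS, 45 min) read 2130.3 for Csf1, against a highest resting value of 662.2, and 380.6 for Csf2, against 90.2. The IL-6-/- LPS array whose labels give both 45 and 180 min read 2945.4 for Csf1 and 576.7 for Csf3, the latter against 471. No group can be read from these values.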

How the results depend on the processing

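Of 31 called changes of member probe sets, none reversed under the 7 other settings, and 23 kept their call under all of them (20 refitted calls were lost). With 1 array left out, none reversed and 12 kept every call. The calls that held throughout were those of Csf1 at 45 and 180 min and of Csf1r at 180 min, all against resting cells. So did the IL-10 change of Csf3r 93198_at at 180 min in IL-10-/- cells. All Csf2 calls did too, except IL-10-/- minus wild type at 45 min and the added time course. Csf2 entered its tests through its high arrays alone. The number of members called went from 2 to 1 for 180 against 45 min of LPS in wild-type cells, and from 2 to 1 with IL-10 in IL-10-/- cells, each without the filter and without the trend. Each rose to 3 with 200 added, the former by Csf3r 93198_at (0.0483) and the latter by 95808_g_at (0.0299, and 0.0444 with the filter at 500). With IL-10 in wild-type cells it went from 1 to 2 (200 added, filter at 500, quantile) and to 0 (no filter, no trend), and in IL-6-/- cells from 1 to 3 (200 added) and 2 (filter at 500, quantile). IL-10-/- minus wild type at 45 min went from 1 to 0 with 10 added, and the added time course comparison from 1 to 0 with 10 and to 2 with 200 added.

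With each array left out in turn, members called ran from 1 to 5 at 45 min and 2 to 6 at 180 min of LPS against resting cells. For 180 against 45 min they ran from 0 to 3 in wild-type and 2 to 5 in IL-10-/- cells, and with IL-10 from 0 to 2, 0 to 4 and 0 to 3 in wild-type, IL-10-/- and IL-6-/- cells. They ran from 2 to 4 for IL-10 at 180 min in IL-10-/- cells, 1 to 4 for its mean, 0 to 1 and 1 to 3 for IL-10-/- minus wild type at 45 and 180 min, 1 to 2 for the genotype difference in the IL-10 change and 1 to 3 for that in the time course. The Csf3r 93198_at change at 45 min of LPS ran from -0.79 to 0.37 (main value -0.08), turning positive without resting array 1 (0.37) or 3 (0.20) or the first LPS array (0.06). The causes were not tested. Over all probe sets, IL-10 at 180 min in IL-6-/- cells called 17, with 27 (200 added) and 7 (no filter); IL-10-/- minus wild type with IL-10 called 18 and 10 (no filter); the genotype difference in the IL-10 change called 46 and 72 (200 added); and IL-6-/- minus wild type at 45 min called 0, with 2 (200 added) and 1 (quantile). With 1 array left out, the count fell from 1377 to 693 for LPS at 45 min (either LPS array gives such a fall), from 31 to 6 and from 236 to 105 for IL-10-/- minus wild type at 45 and 180 min, and from 291 to 176 for IL-10 at 180 min in IL-10-/- cells.

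Replicate numbers were not taken to pair the samples, since the labels give them no shared source and not every correlation passed 0.1. Over 23 pairs of groups of a genotype, deviations of same-numbered arrays correlated at 0.0204 to 0.441 (median 0.12), all positive and 13 above 0.1, those of IL-6-/- cells among them. The second array was the higher in 12 of 13 groups for Csf2rb, in 11 for Csf3 and in 10 for Csf1 and for 95808_g_at. It was the higher in 1 of 13 for Csf2, in 3 for Csf2ra and for 95807_at, and in 6 to 8 for the other probe sets. With the replicate number as a block, 28 of the 31 calls held and 3 were lost, all of Csf3r: 93198_at at 180 min of LPS against resting cells (0.0512) and between 45 and 180 min in IL-10-/- cells (0.0549), and 95808_g_at in IL-10-/- minus wild type at 180 min (0.062).

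Groups of 1 or 2 arrays limit every comparison. Csf2 in wild-type cells and 161832_r_at of Csf1r lie near the signals of genes of other tissues, so the size of their changes depends on the constant added.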

Other observations

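The ungrouped array without a genotype read 433.1 for Csf3, 23913.9 for Csf1r (104354_at), 720.4 for Csf2ra, 853.5 for Csf2rb, 146.7 for Csf1r on 161832_r_at, and 488, 1658.6 and 314.1 for Csf3r (93198_at, 95807_at and 95808_g_at). The ungrouped array with 2 conflicting times read 20.6 for Csf2, 16557.8 for Csf1r, 1028.7 for Csf2ra, 1321 for Csf2rb, 175.6 for Csf1r on 161832_r_at, and 1349.3, 962.3 and 882.6 for the same Csf3r probe sets.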
